A study of Arabidopsis thaliana with 30 samples.

Results

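The genes examined here were the 9 *Arabidopsis thaliana* genes that encode the dedicated steps of abscisic acid (ABA) synthesis, taken by name out of 32833 genes in the count table. They were the 9-cis-epoxycarotenoid dioxygenase genes *NCED2*, *NCED3*, *NCED5*, *NCED6* and *NCED9*, the zeaxanthin epoxidase gene *ABA1*, the xanthoxin dehydrogenase gene *ABA2*, the molybdenum cofactor sulfurase gene *ABA3* and the abscisic aldehyde oxidase gene *AAO3*. Poly(A) RNA was sequenced from 5-day-old seedlings that had been moved into liquid Murashige and Skoog medium for 3 h, either without ABA (mock) or with 50 µM ABA. The comparison of 5 genotypes addressed whether the RNA cap enzyme DXO1 and the RNA cap methyltransferase RNMT1 affect the ABA response.

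The genotypes were Col-0 wild type (WT), the T-DNA insertion mutant *dxo1*, *dxo1* carrying the non-catalytic N-terminal extension of DXO1 (labelled DXO1-N/dxo1, here *dxo1*/*NTE*), *dxo1* carrying the catalytic C-terminal domain (labelled DXO1-C/dxo1, here *dxo1*/*cDXO1*), and the *rnmt1* mutant, which the study names *rnmt1-3*, a weak CRISPR allele since the full knockout is lethal. Both transgenes were driven by the DXO1 promoter in plants that carry the *dxo1* insertion. Each of the 10 groups had 3 libraries, 30 in all. The study calls the libraries of a group biological replicates, the labels do not say whether they came from separate plantings, and p-values measure the spread between these samples.

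ABA is made from carotenoids. In plastids, zeaxanthin epoxidase converts zeaxanthin to violaxanthin, and the NCED enzymes cleave 9-cis-epoxycarotenoids to xanthoxin, a step that is held to limit the rate of the pathway. In the cytosol, ABA2 oxidises xanthoxin to abscisic aldehyde and AAO3 oxidises that to ABA, using a molybdenum cofactor that ABA3 activates. *NCED3* is known as the member induced by drought, whereas *NCED6* and *NCED9* are known for their roles in seeds.

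In TAIR10.1 the 5 *NCED* genes are single-exon genes. *NCED3* (AT3G14440) lies on the minus strand of chromosome 3 at chr3:4831286-4834015, *NCED6* (AT3G24220) on the plus strand at chr3:8761419-8763303, *NCED2* (AT4G18350) on the plus strand at chr4:10142255-10144646, *NCED5* (AT1G30100) on the plus strand at chr1:10571310-10573365 and *NCED9* (AT1G78390) on the minus strand at chr1:29490705-29492875. *ABA1* (AT5G67030, 16 exons) lies on the minus strand at chr5:26753469-26757402, *ABA2* (AT1G52340, 2 exons) on the minus strand at chr1:19489794-19491650, *ABA3* (AT1G16540, 21 exons) on the plus strand at chr1:5659370-5665488 and *AAO3* (AT2G27150, 11 exons) on the plus strand at chr2:11601727-11608450. The annotated gene AT2G27160 overlaps the 3′ end of *AAO3* by 985 bases on the other strand and was listed at 0 counts in all 30 libraries. Overlapping *ABA2* on the other strand are AT1G52330, by 121 bases and with 18 to 65 counts a library, and the lncRNA gene AT1G07803, by 349 bases and with 0 counts in all 30 libraries. If the counting did not use strand, reads in these overlaps could have been left out of *ABA2* and *AAO3*, so the counts of both are uncertain there, and the counts of the partner genes set no limit to this.

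The 250 bases before the annotated start of the 5 members that were measured in every comparison are shown because most of these genes rose with ABA. They were read from the TAIR10.1 genome and are written 5′ to 3′ on the strand of the gene, and capitals mark matches to the ABA response element searched as ACGTGGC or ACGTGTC, to its core ACGTG and to the dehydration response core CCGAC, on both strands, with overlaps merged. The windows were chr3:4834016-4834265 for *NCED3*, chr2:11601477-11601726 for *AAO3*, chr5:26757403-26757652 for *ABA1*, chr1:5659120-5659369 for *ABA3* and chr1:19491651-19491900 for *ABA2*.
NCED3: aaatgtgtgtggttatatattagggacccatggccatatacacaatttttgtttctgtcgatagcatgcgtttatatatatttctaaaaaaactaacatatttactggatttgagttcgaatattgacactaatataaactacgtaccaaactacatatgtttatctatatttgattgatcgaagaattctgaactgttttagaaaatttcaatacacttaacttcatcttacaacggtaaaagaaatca
AAO3: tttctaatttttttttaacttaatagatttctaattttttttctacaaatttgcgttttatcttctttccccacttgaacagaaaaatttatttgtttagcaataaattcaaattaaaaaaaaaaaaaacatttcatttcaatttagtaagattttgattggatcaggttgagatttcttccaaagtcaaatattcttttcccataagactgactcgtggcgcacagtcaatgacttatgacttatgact
ABA1: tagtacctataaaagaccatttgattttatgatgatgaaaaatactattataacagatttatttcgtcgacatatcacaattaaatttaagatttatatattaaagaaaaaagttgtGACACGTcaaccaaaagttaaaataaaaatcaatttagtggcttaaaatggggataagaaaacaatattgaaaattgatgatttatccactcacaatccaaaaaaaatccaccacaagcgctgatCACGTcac
ABA3: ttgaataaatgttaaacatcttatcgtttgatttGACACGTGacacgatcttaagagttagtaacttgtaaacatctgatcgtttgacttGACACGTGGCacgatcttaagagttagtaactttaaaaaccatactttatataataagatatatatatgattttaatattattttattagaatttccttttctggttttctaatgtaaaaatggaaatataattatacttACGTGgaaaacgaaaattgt
ABA2: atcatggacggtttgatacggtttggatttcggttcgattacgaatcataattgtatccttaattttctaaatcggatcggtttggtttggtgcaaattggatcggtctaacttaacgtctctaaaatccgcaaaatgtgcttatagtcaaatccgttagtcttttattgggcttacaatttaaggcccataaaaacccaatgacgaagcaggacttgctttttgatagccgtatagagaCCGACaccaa

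The *ABA3* window held 3 matches to the ABA response element and 5 to the core, the farthest of them 216 bases before the start. The *ABA1* window held 1 match to the element and 2 to the core, and the *NCED9* window, not shown, held 1 and 2. No other member had either motif in this window, and *ABA2* alone had CCGAC. Of 27443 protein-coding promoters of the same length, 6.39% held the element, 22.9% the core and 12% CCGAC. These are matches of letters and not sites, and the core lies within every match to the element.

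Library totals ranged from 17961410 to 23249299 counts with a median of 19825453, so that 3 counts corresponded to 0.129 to 0.165 CPM (counts per 1e6 library counts, with totals scaled by edgeR's TMM factors). Counts of *DXO1* itself were 763 to 908 in WT, 328 to 472 in *dxo1* and 4301 to 5690 in the lines with a transgene. *RNMT1* had 299 to 348 counts in *rnmt1-3*, 315 to 405 in WT and 389 to 1378 in *dxo1*/*NTE*. In CPM, *RNMT1* was at 14.0 to 15.3 in *rnmt1-3* mock against 17.7 to 22.2 in WT mock, without overlap. With ABA the ranges overlapped, at 15.6 to 16.8 CPM in *rnmt1-3* and 15.9 to 18.5 CPM in WT. The WT mock libraries spread more than any other group, with a common dispersion of 0.04 against 0.00386 to 0.0102 in the other groups, and of 0.00488 without replicate 1. Many of the results against WT mock are therefore also given without that library. Shoot markers (*RBCS1A*, *LHCB1.3*, *LHCA1*, *CA1*) and root markers (*PYK10*, *COBL9*, *EXP7*, *PRP3*) were all detected, and 9 seed storage genes summed to 0.146 to 5.87 CPM. A summed list of 5 ABA-responsive genes was far higher in every ABA library than in any mock library.

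Of the 9 members, 5 (*NCED3*, *ABA1*, *ABA2*, *ABA3* and *AAO3*) had enough counts to be tested in every comparison. *NCED2* passed the count filter in 2 of the 21 fits, and *NCED5*, *NCED6* and *NCED9* in none. *NCED2* had 0 to 22 counts a library, *NCED9* 0 to 11 and *NCED5* 0 to 5. With ABA, *NCED9* had 11, 11 and 10 counts in *dxo1*/*NTE* against 0, 5 and 3 in mock. In *rnmt1-3* it had 6, 6 and 4 against 3, 0 and 1 in mock. Mock and ABA libraries did not overlap in either genotype. They overlapped in WT (mock 1, 7 and 0, ABA 6, 8 and 5) and in *dxo1* (mock 3, 1 and 0, ABA 0, 6 and 9). They also overlapped in *dxo1*/*cDXO1* (mock 7, 3 and 1, ABA 1, 4 and 8). The *NCED9* libraries of *dxo1*/*NTE* under ABA lay above the ABA libraries of every other genotype. At such counts none of this was tested, and the share of all genes that separate in this way was not counted. *NCED6* had 6 counts in *dxo1*/*cDXO1* mock replicate 2 and 0 in the other 29 libraries. In the fit of *dxo1* against WT under ABA, the only 2-group fit to keep *NCED2*, its 3, 22 and 8 counts in WT and 6, 11 and 20 counts in *dxo1* overlapped (adjusted p = 0.808, edgeR). The dioxygenase signal of these seedlings was thus mostly *NCED3* under ABA, and in mock by the group means. As a share of the summed *NCED* level in TPM (transcripts per 1e6, which corrects for gene length), *NCED3* made up 57.9% to 79.1% in the mock group means and 93.7% to 96.7% in the ABA group means. Single ABA libraries ran from 90.8% to 98.5%. Single mock libraries ran from 49.1% to 91.8%, on totals of only 18 to 59 *NCED* counts.

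Levels were compared between genes only in TPM. *ABA1* was the most abundant member in every group, with 63.4 ± 8.32 TPM in WT mock and 90.4 ± 15.3 TPM in WT ABA (SD, n = 3). In WT mock it was followed by *AAO3* at 16.1 ± 2.85, *ABA2* at 14.0 ± 0.245, *ABA3* at 8.38 ± 0.895 and *NCED3* at 0.681 ± 0.166 TPM. *AAO3* and *ABA2* overlapped there, with 13.8 to 19.3 TPM against 13.7 to 14.1, and the other neighbours in that order did not. After ABA, *NCED3* rose in WT to 12.7 ± 1.03 TPM, which overlapped *ABA3* at 12.3 ± 1.69 TPM. In *dxo1* mock the order of *AAO3* and *ABA2* was exchanged, with *ABA2* at 13.2 ± 2.04 TPM and *AAO3* at 7.85 ± 0.395 TPM. There *AAO3* overlapped *ABA3*, which stood at 7.26 ± 0.509 TPM.

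**Figure D1:**
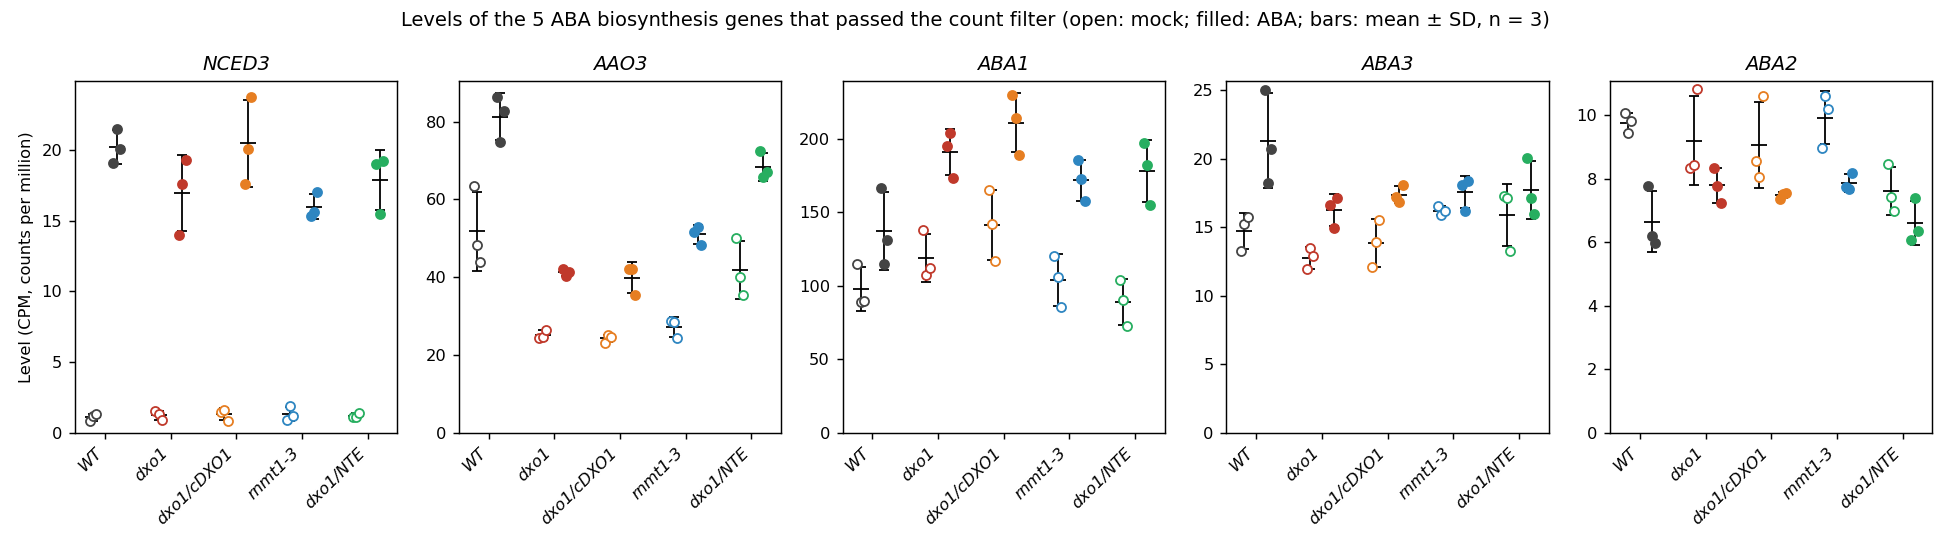
Level in CPM (y axis, linear from 0) of the 5 members that passed the count filter, for each of 5 genotypes (x axis); open points are mock and filled points ABA libraries, and black bars give mean and SD of 3. *NCED3* was at 0.808 to 1.87 CPM in mock and 14.0 to 23.8 CPM in ABA libraries, and *AAO3* in *dxo1*, *dxo1*/*cDXO1* and *rnmt1-3* lay below WT under the same treatment.

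The first question was how ABA itself changed the genes of its own synthesis. Added ABA raised *NCED3* 12.2- to 18.7-fold and *AAO3* 1.59- to 1.90-fold in all 5 genotypes. A rise of *ABA1* was called in every genotype but WT, where the estimate was also above 0 (0.52 on the log2 scale, adjusted p = 0.0642, edgeR). A rise of *ABA3* was called in WT, *dxo1* and *dxo1*/*cDXO1*. *ABA2* was called in none, with log2 estimates of -0.53 to -0.19. Of the 5 members tested, 3 rose in WT, where 16.5% of all tested genes were called and 10% were called higher. In *dxo1* 4 rose (25.9% of all genes called, 14.1% higher), in *dxo1*/*cDXO1* 4 (24.4% and 13.6%), in *rnmt1-3* 3 (26.1% and 14.7%) and in *dxo1*/*NTE* 3 (28.8% and 15.4%). With all libraries no member was called lower, and each count was a larger share than the background. All 5 members were called in WT without mock replicate 1 (25% of all genes), *ABA2* as lower. A call means an adjusted p under 0.05 in edgeR's quasi-likelihood test, and the WT libraries are shared by all comparisons with WT below. Expression levels in whole seedlings cannot tell apart fewer cells of a type from less RNA per cell.

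*NCED3* had 15, 22 and 24 counts in the 3 WT mock libraries and 356, 426 and 406 in the WT ABA libraries. In *dxo1* it had 32, 24 and 18 counts in mock and 265, 330 and 376 in ABA. No mock library of any genotype came near any ABA library. On the log2 scale the rise was 4.22 ± 0.20 (SE) in WT (adjusted p = 2.66e-06), 3.99 ± 0.20 in *dxo1*/*cDXO1*, 3.90 ± 0.18 in *dxo1*/*NTE*, 3.79 ± 0.20 in *dxo1* and 3.61 ± 0.20 in *rnmt1-3*. The estimate in WT was the highest of these, and the differences from WT were -0.60 in *rnmt1-3*, -0.41 in *dxo1*, -0.32 in *dxo1*/*NTE* and -0.24 in *dxo1*/*cDXO1* on the log2 scale. None of the 4 interaction tests of *NCED3* was called (adjusted p from 0.667 to 0.838), and their 95% intervals together ran from -1.27 to 0.45. Mock libraries held 15 to 39 counts of *NCED3*.

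*AAO3*, whose product makes ABA from abscisic aldehyde, was at 63.3, 48.2 and 44.0 CPM in WT mock and at 86.4, 74.7 and 82.7 CPM in WT ABA. In *dxo1* it was at 24.3, 24.6 and 26.5 CPM in mock and at 42.2, 40.4 and 41.3 CPM in ABA. Mock and ABA libraries did not overlap in either genotype, and all ABA libraries of *dxo1* lay below the lowest mock library of WT. The log2 rise with ABA was 0.67 ± 0.15 in WT (adjusted p = 0.0135) and 0.93 ± 0.08 in *rnmt1-3*. For *dxo1*, *dxo1*/*cDXO1* and *dxo1*/*NTE* it was 0.72 ± 0.07, 0.72 ± 0.08 and 0.72 ± 0.11, all called. In WT it was 0.84 ± 0.09 without WT mock replicate 1, and the call was lost without WT ABA replicate 1 (0.64, adjusted p = 0.0522) or replicate 3 (0.67, adjusted p = 0.0582). The interactions of *AAO3* were 0.04 to 0.26 on the log2 scale and none was called (adjusted p from 0.767 to 0.952, 95% intervals within -0.37 to 0.63).

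*ABA1*, the epoxidase gene, was at 115, 88.9 and 89.3 CPM in WT mock and at 166, 115 and 131 CPM in WT ABA. In *dxo1*/*NTE* it was at 104, 89.9 and 72.3 CPM in mock and at 197, 182 and 155 CPM in ABA. The groups of *dxo1*/*NTE* were well apart, whereas in WT the highest mock and the lowest ABA library overlapped at 115 CPM. The rise was 1.01 ± 0.12 in *dxo1*/*NTE* (adjusted p = 1.02e-05), 0.74 ± 0.10 in *rnmt1-3*, 0.69 ± 0.08 in *dxo1* and 0.58 ± 0.10 in *dxo1*/*cDXO1* on the log2 scale. In WT the estimate was 0.52 ± 0.16 (adjusted p = 0.0642), and without WT mock replicate 1 it was 0.65 ± 0.13 and passed (adjusted p = 0.00415), as it did with DESeq2 (adjusted p = 0.0253), in 1 edgeR fit over 30 libraries (0.0121) and with a replicate block (0.0266). The interaction of *dxo1*/*NTE* with ABA for *ABA1* was 0.50, with an unadjusted p of 0.0417 and an adjusted p of 0.414.

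*ABA3*, the cofactor sulfurase gene, was called higher in 3 genotypes, and *ABA2*, the xanthoxin dehydrogenase gene, was called in none with all libraries. *ABA3* was at 13.2, 15.2 and 15.7 CPM in WT mock and at 25.0, 18.2 and 20.7 CPM in WT ABA, with no overlap. Its rise on the log2 scale was 0.56 ± 0.15 in WT (adjusted p = 0.0348), 0.35 ± 0.10 in *dxo1* and 0.33 ± 0.11 in *dxo1*/*cDXO1*, and the estimates were 0.13 in *rnmt1-3* and 0.16 in *dxo1*/*NTE*. The WT call was lost without WT mock replicate 2 (adjusted p = 0.0741) or 3 (0.0663) and without WT ABA replicate 1 (0.124) or 3 (0.109), and with the replicate number as a block in edgeR (adjusted p = 0.0777), and was kept without WT mock replicate 1 (0.49, adjusted p = 0.0238). In *dxo1* it was lost without replicate 1 (adjusted p = 0.162) or 3 (0.0899), and in *dxo1*/*cDXO1* without replicate 1 (0.231) or 2 (0.158), with DESeq2 (0.0776) and in the edgeR fit over 30 libraries (0.0516). *ABA2* had the opposite sign in every genotype, from -0.53 in WT (adjusted p = 0.0564) to -0.19 in *dxo1*/*NTE*. In WT it had 184, 181 and 179 counts in mock and 145, 123 and 121 in ABA, which did not overlap, and it passed without WT mock replicate 1 (-0.51, adjusted p = 0.0431) and in the fit over 30 libraries (-0.56, adjusted p = 0.00139).

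**Figure D2:**
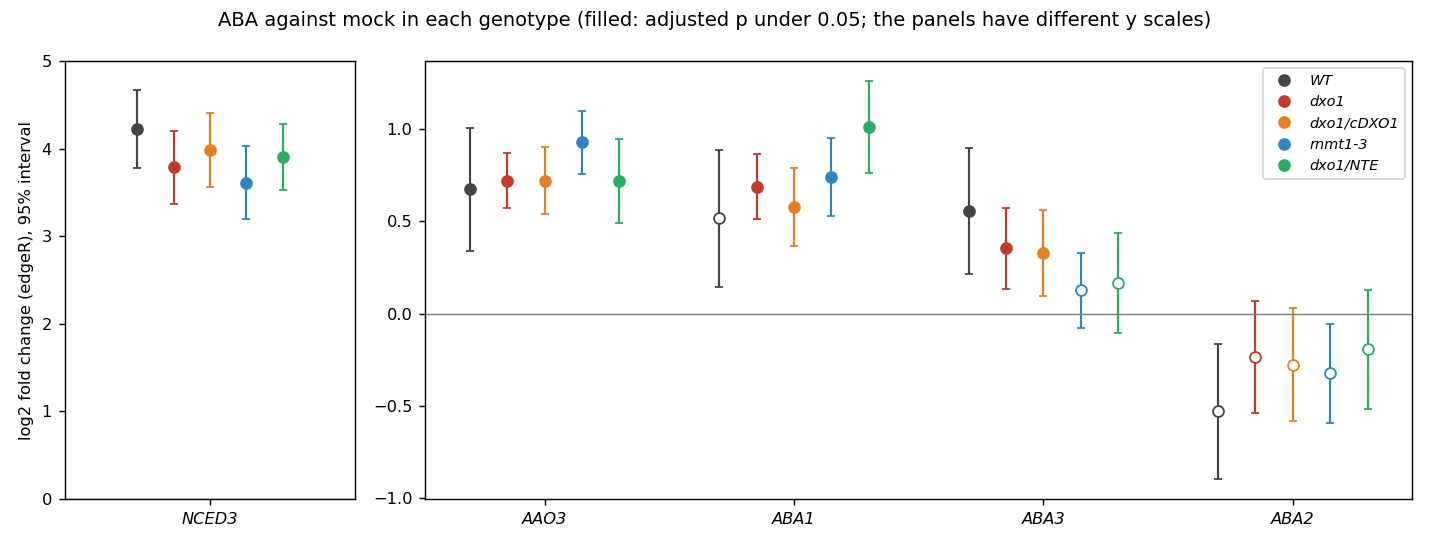
Log2 fold change of ABA against mock (y axis, edgeR estimate with 95% interval) for *NCED3* (left panel) and 4 other members (right panel, a smaller scale) in 5 genotypes, shown by colour; filled points had an adjusted p under 0.05. *NCED3* lay between 3.61 and 4.22, *AAO3* between 0.67 and 0.93, and *ABA2* below 0 without a call.

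For the difference in ABA response between each genotype and WT, 21 interaction tests were made on members. edgeR called 0 of them and DESeq2 also called 0. Those with an unadjusted p under 0.05 numbered 2, *ABA1* in *dxo1*/*NTE*, given above, and *ABA3* in *rnmt1-3*. The estimate of the latter was -0.42, with an unadjusted p of 0.0283 and an adjusted p of 0.626 in edgeR. Among all genes, 0.272% were called for *dxo1*, 0.233% for *dxo1*/*cDXO1*, 0.126% for *rnmt1-3* and 0% for *dxo1*/*NTE*, and the shares with an unadjusted p under 0.05 were 10%, 10%, 7.38% and 11.5%. A miss here does not show equal responses.

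The second question was whether the genotypes differed from WT under one treatment. *AAO3* had the largest difference from WT of the tested members in *dxo1*, *dxo1*/*cDXO1* and *rnmt1-3* under both treatments, whereas in *dxo1*/*NTE* the largest estimates were those of *ABA2* in mock (-0.35) and *ABA1* under ABA (0.37), neither of them called. Under mock it was lower than in WT in *dxo1*, *dxo1*/*cDXO1* and *rnmt1-3*, at 0.47 to 0.52 of the WT level, and with ABA at 0.50 to 0.63 of it, while *dxo1*/*NTE* was not called under either treatment. *ABA1* was higher than WT in *dxo1*, *dxo1*/*cDXO1* and *rnmt1-3* under ABA, and in *dxo1*/*cDXO1* also under mock. In mock, 1 of 5 tested members was called for *dxo1* (24.8% of all genes), 2 for *dxo1*/*cDXO1* (23.6%), 1 for *rnmt1-3* (18.8%) and 0 for *dxo1*/*NTE* (1.6%). In ABA the counts were 3 of 6 for *dxo1* (43.7%), 2 of 5 for *dxo1*/*cDXO1* (45.4%), 3 of 5 for *rnmt1-3* (36.3%) and 0 of 5 for *dxo1*/*NTE* (8%). With 5 or 6 genes tested, these counts do not set the members apart from that background. Without WT mock replicate 1 the members called in mock were 2 for *dxo1* (43.7% of all genes), 2 for *dxo1*/*cDXO1* (40.1%), 1 for *rnmt1-3* (36.8%) and 0 for *dxo1*/*NTE* (14.1%). For *dxo1*/*NTE* against WT, edgeR's count of 0 stood beside 1 member with an unadjusted p under 0.05 (19.6% of all genes) and 0 by DESeq2 in mock, and beside 2 (23%) and 1 under ABA.

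*AAO3* stood at 51.8 ± 10.2 CPM in WT mock (SD, n = 3), 25.1 ± 1.19 in *dxo1*, 24.2 ± 0.98 in *dxo1*/*cDXO1* and 27.1 ± 2.51 in *rnmt1-3*. The highest single library of these 3 genotypes was *rnmt1-3* replicate 1 at 28.7 CPM, below the lowest WT library at 44.0. Relative to WT the log2 difference was -1.03 ± 0.14 in *dxo1* (adjusted p = 0.00192), -1.09 ± 0.14 in *dxo1*/*cDXO1* (adjusted p = 0.0013) and -0.93 ± 0.15 in *rnmt1-3* (adjusted p = 0.0048). Without WT mock replicate 1, the library highest in *AAO3*, these were -0.87, -0.92 and -0.77 and all 3 passed (adjusted p at most 4.82e-05). In *dxo1*/*NTE* mock *AAO3* was at 50.0, 40.1 and 35.3 CPM, which overlapped WT, and the log2 fold change was -0.30 ± 0.17 (adjusted p = 0.361, 95% interval -0.69 to 0.08). It passed in the edgeR fit over 30 libraries (adjusted p = 0.0469).

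The same genotypes differed from WT under ABA. *AAO3* was at 81.3 ± 6.01 CPM in WT and 68.4 ± 3.57 in *dxo1*/*NTE*, above 51.0 ± 2.36 in *rnmt1-3*, 41.3 ± 0.89 in *dxo1* and 39.9 ± 3.89 in *dxo1*/*cDXO1*. The log2 fold change was -0.97 ± 0.07 in *dxo1* (adjusted p = 5.17e-07), -1.01 ± 0.08 in *dxo1*/*cDXO1* (adjusted p = 6.64e-07) and -0.66 ± 0.08 in *rnmt1-3* (adjusted p = 2.17e-05), with no library above the lowest WT library at 74.7 CPM. All of the *dxo1*/*NTE* libraries (72.5, 65.9 and 67.0 CPM) also lay below it, and the estimate was -0.25 ± 0.08 (adjusted p = 0.069), which passed without WT ABA replicate 2 (-0.31, adjusted p = 0.0329). The difference also passed with a replicate block in edgeR (adjusted p = 0.0168). The sum of 7 genes known to respond to low oxygen was at 593 to 2733 CPM in WT mock. In mock it was at 155 to 1176 CPM in *dxo1*, 97.4 to 693 in *dxo1*/*cDXO1*, 170 to 900 in *rnmt1-3* and 415 to 1935 in *dxo1*/*NTE*, all overlapping WT. With ABA the WT libraries were at 405 to 1073 CPM and those of *dxo1*/*NTE* at 303 to 633, above *rnmt1-3* at 196 to 287, *dxo1* at 153 to 195 and *dxo1*/*cDXO1* at 121 to 140. Under ABA, 4 of these 7 genes were called lower than WT in *dxo1* (43.7% of all genes called, 21.2% lower). The number was 4 in *dxo1*/*cDXO1* (45.4% and 21.8%), 5 in *rnmt1-3* (36.3% and 16.6%) and 1 in *dxo1*/*NTE* (8% and 3.38%). None of the 7 was called higher. The part of low oxygen in the *AAO3* result was not tested.

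**Figure D3:**
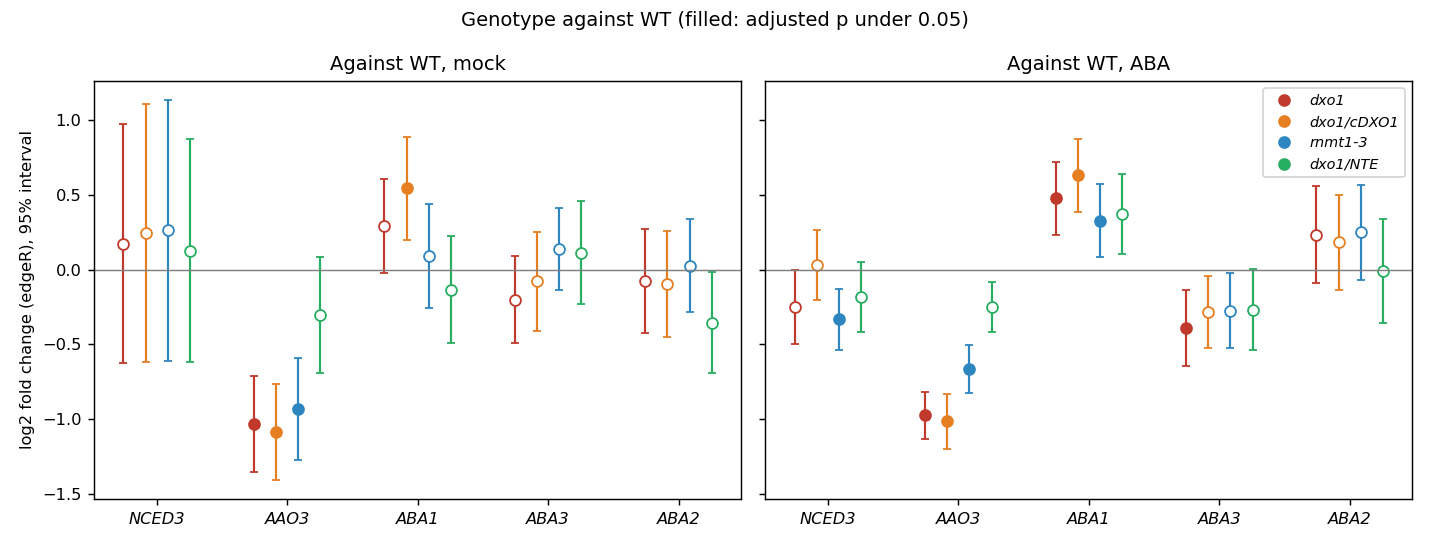
Log2 fold change against WT (y axis, edgeR estimate with 95% interval) of 5 members in mock (left) and ABA (right), with 4 genotypes shown by colour; filled points had an adjusted p under 0.05. *AAO3* lay between -1.09 and -0.66 in *dxo1*, *dxo1*/*cDXO1* and *rnmt1-3*, and at -0.30 and -0.25 in *dxo1*/*NTE*.

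*ABA1* went the other way. Under ABA it was at 166, 115 and 131 CPM in WT, 195, 204 and 173 CPM in *dxo1* and 229, 214 and 189 CPM in *dxo1*/*cDXO1*, so that both mutant groups lay above the highest WT library. The log2 difference was 0.48 ± 0.11 in *dxo1* (adjusted p = 0.00402), 0.63 ± 0.11 in *dxo1*/*cDXO1* (adjusted p = 0.000536) and 0.33 ± 0.11 in *rnmt1-3* (adjusted p = 0.0358), where the libraries of 185, 172 and 157 CPM overlapped WT. The *rnmt1-3* call was lost without WT ABA replicate 2 (adjusted p = 0.112) or 3 (0.13), without *rnmt1-3* ABA replicate 1 (0.14) or 2 (0.1), and in the edgeR fit over 30 libraries (0.0972). In *dxo1*/*NTE* the estimate was 0.37 (adjusted p = 0.0847), and it passed without WT ABA replicate 1 (0.53, adjusted p = 0.00341) or *dxo1*/*NTE* ABA replicate 3 (0.46, adjusted p = 0.0468), with DESeq2 (adjusted p = 0.0356), without the count filter (0.0335) and with a replicate block (0.00182).

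Shoot markers differed from WT in some of the same comparisons. Under ABA the 4 of them summed to 16836 to 20836 CPM in WT, 19130 to 20053 in *dxo1*, 22660 to 23801 in *dxo1*/*cDXO1*, 20341 to 22287 in *rnmt1-3* and 17664 to 20393 in *dxo1*/*NTE*. Of the 4 shoot markers under ABA, *dxo1* had 2 called higher than WT (median log2 fold change 0.42, 43.7% of all genes called). *dxo1*/*cDXO1* had 3 (0.66, 45.4%), *rnmt1-3* had 1 (0.24, 36.3%) and *dxo1*/*NTE* had 1 (0.17, 8%), and none was called lower. With 4 markers, these counts against WT do not set the markers apart from that background. In mock 2 were called higher in *dxo1*/*cDXO1* (median 0.30, 23.6% of all genes called) and 1 lower in *dxo1* (24.8%). Against *dxo1*, 3 were higher in *dxo1*/*cDXO1* both in mock (0.857%) and under ABA (6.1%). Of the 4 root markers, 2 were called lower in *rnmt1-3* under ABA (median -0.54, 36.3% of all genes called). The summed level of all 4 was higher there, at 3856 to 3990 CPM against 3264 to 3556 in WT. The part of these markers in the *ABA1* and *AAO3* results was not tested.

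In mock *ABA1* was called only in *dxo1*/*cDXO1*, where its libraries stood at 165, 142 and 117 CPM, all above the 115 CPM of the highest WT library. The log2 fold change was 0.54 ± 0.15 (adjusted p = 0.0321), and the call was lost without WT mock replicate 2 (adjusted p = 0.0965) or 3 (0.0989) or *dxo1*/*cDXO1* mock replicate 1 (0.135) or 2 (0.11). Without WT mock replicate 1 it was 0.68 (adjusted p = 0.00032), and *ABA1* in *dxo1* mock then passed as well, at 0.42 (adjusted p = 0.00251) against 0.29 (adjusted p = 0.154) with all libraries. In *rnmt1-3* and *dxo1*/*NTE* mock the estimates were 0.09 and -0.13.

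Of the remaining members, *ABA3* under ABA was lower in *dxo1* by a log2 fold change of -0.39 (adjusted p = 0.0173), with 16.6, 14.9 and 17.2 CPM against 25.0, 18.2 and 20.7 in WT. The groups did not overlap, and the call was lost without WT ABA replicate 1 (-0.26, adjusted p = 0.0644) or *dxo1* ABA replicate 2 (-0.33, adjusted p = 0.0788). For *ABA3* the other genotypes had estimates of -0.28 in *dxo1*/*cDXO1* (adjusted p = 0.0554), -0.27 in *rnmt1-3* (adjusted p = 0.0833) and -0.27 in *dxo1*/*NTE* (adjusted p = 0.225). Without WT ABA replicate 2 the first of these became -0.38 (adjusted p = 0.00892) and the second -0.38 (adjusted p = 0.0187). The first also passed without the count filter, in the edgeR fit over 30 libraries and with a replicate block. The second also passed with the block.

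*NCED3* under ABA was lower in *rnmt1-3*, at 15.3, 15.7 and 17 CPM against 19.1, 21.5 and 20.1 in WT, with no overlap. The log2 fold change was -0.33 ± 0.09 (adjusted p = 0.0147), and the call was lost without *rnmt1-3* ABA replicate 1 (adjusted p = 0.0584) or 2 (0.0532) and in the edgeR fit over 30 libraries (0.109). In *dxo1* the estimate was -0.25 (adjusted p = 0.0981), which passed without *dxo1* ABA replicate 3 (-0.35, adjusted p = 0.0405). Neither *dxo1*/*cDXO1* (0.03) nor *dxo1*/*NTE* (-0.18) was called. In mock no genotype was called for *NCED3*, with estimates of 0.13 to 0.26 and 95% intervals within -0.63 to 1.14. *ABA2* was called in no genotype under either treatment, with estimates from -0.35 to 0.25. In the edgeR fit over 30 libraries it passed in *dxo1*/*NTE* mock (adjusted p = 0.0497).

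The third question was what each part of DXO1 changed when it was put back into *dxo1*. *AAO3* was higher in *dxo1*/*NTE* than in *dxo1* by a log2 fold change of 0.73 ± 0.11 in mock (adjusted p = 0.000461) and of 0.73 ± 0.07 under ABA (adjusted p = 1.22e-06), at 1.66 times the *dxo1* level. Under ABA every *dxo1*/*NTE* library (65.9 to 72.5 CPM) lay above every *dxo1* library (40.4 to 42.2 CPM), and under mock the ranges were 35.3 to 50.0 and 24.3 to 26.5 CPM. *ABA1* was lower in *dxo1*/*NTE* than in *dxo1* in mock, at -0.43 on the log2 scale (adjusted p = 0.0183), with libraries of 104, 89.9 and 72.3 CPM just below those of *dxo1* at 107 to 138 CPM, and the call was lost without replicate 2 of both groups (-0.51, adjusted p = 0.0673). With 2 of 5 members called in mock and 1 of 5 in ABA, the background was 32.6% and 35.8% of all genes.

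*dxo1*/*cDXO1* was compared with *dxo1* in the same way, and edgeR called 0 of 5 members in mock (0.857% of all genes, 1 member with an unadjusted p under 0.05 beside 12.2% of all genes, 0 by DESeq2) and 0 of 5 in ABA (6.1%, 2 beside 17.3%, 0 by DESeq2). For *AAO3* the log2 fold change was -0.05 ± 0.08 in mock (adjusted p = 0.869) and -0.05 ± 0.07 in ABA (adjusted p = 0.811), with 95% intervals that reached no lower than -0.22. For *ABA1* in mock it was 0.25 (adjusted p = 0.404), and in a fit with the replicate number as a block it was 0.25 and passed (adjusted p = 0.00782). This was the only 2-group comparison in which all correlations of same-numbered libraries were over 0.1. *dxo1*/*cDXO1* and *dxo1*/*NTE* were not compared with each other directly.

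AAO3 belongs to a family of 4 aldehyde oxidases, within which its share of the family's transcripts differed between genotypes. Summed over *AAO1* to *AAO4* in TPM, *AAO3* made up 20.2% ± 2.61 in WT mock (SD, n = 3) and 18.4% ± 3.13 in *dxo1*/*NTE* mock, but 11.5% ± 1.49 in *rnmt1-3*, 11% ± 0.214 in *dxo1* and 10.5% ± 0.455 in *dxo1*/*cDXO1*. With ABA the shares were 37.3% ± 2.58, 33.7% ± 1.98, 23.6% ± 0.989, 19.8% ± 0.576 and 19.7% ± 1.90 in the same order. The lowest WT share exceeded the highest share of *dxo1*, *dxo1*/*cDXO1* and *rnmt1-3* under both treatments. *AAO2*, another aldehyde oxidase, was higher than WT under ABA in *dxo1* (log2 fold change 0.65 ± 0.08, adjusted p = 5.02e-05), *dxo1*/*cDXO1* (0.66 ± 0.08) and *rnmt1-3* (0.43 ± 0.08), and was lower in *dxo1*/*NTE* than in *dxo1*, at -0.40 in mock and -0.49 in ABA. *AAO1* was lower than WT in mock in *dxo1* (-0.45 ± 0.10, adjusted p = 0.0123) and *dxo1*/*cDXO1* (-0.44 ± 0.10, adjusted p = 0.0122), smaller estimates than those of *AAO3*. Without WT mock replicate 1 the *AAO1* values were -0.49 and -0.47, and both passed.

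Added ABA, which raised *AAO3*, lowered *AAO1* by -0.58 ± 0.09 in WT (adjusted p = 0.00313) and by -0.24 to -0.50 in the other genotypes on the log2 scale, and lowered *AAO2* by -0.51 ± 0.13 in WT (adjusted p = 0.0296) and by -0.31 to -0.41 in the others, each with a call. In WT without mock replicate 1, these were -0.61 and -0.38 and passed. *AAO4* had at most 7 counts in a library and was tested in no comparison. In WT ABA, *AAO3* was thus at 25.7 ± 1.48 TPM beside *AAO1* at 23.6 ± 0.389 and *AAO2* at 19.7 ± 2.32 TPM, whereas in *dxo1* ABA it was at 12.5 ± 0.320 TPM beside *AAO1* at 21 ± 0.519 and *AAO2* at 29.6 ± 2.32 TPM.

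**Figure D4:**
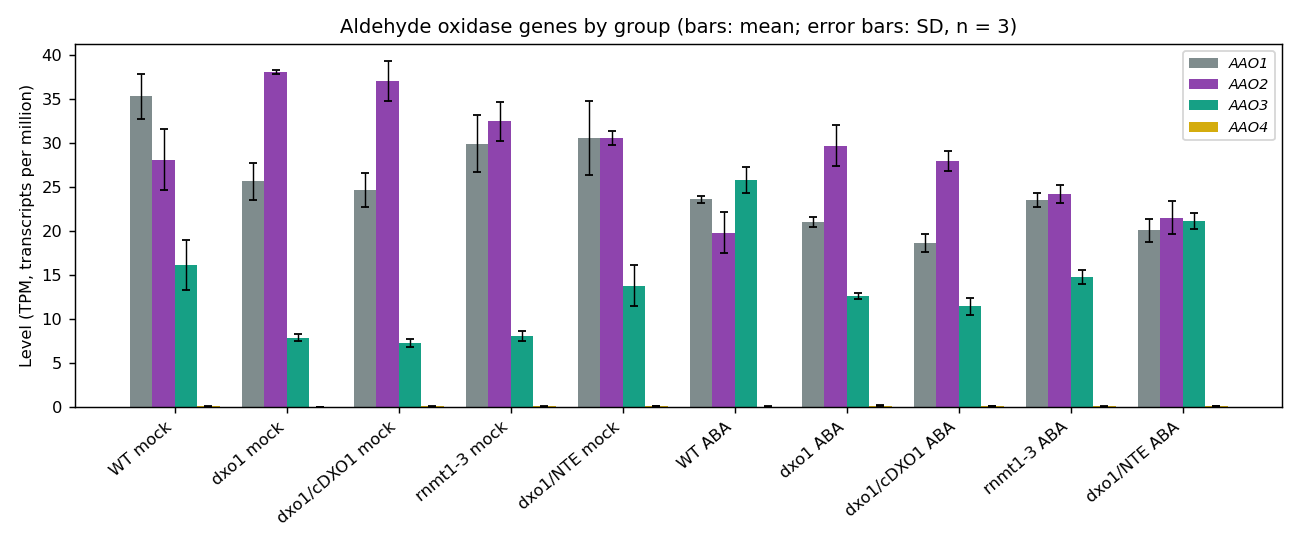
Level in TPM (y axis, linear from 0) of the 4 aldehyde oxidase genes in the 10 groups (x axis); bars are means and error bars the SD of 3 libraries. *AAO3* was at 16.1 TPM in WT mock and 7.85 TPM in *dxo1* mock, and *AAO2* at 28.0 and 38.0 TPM, while *AAO4* was near 0 in all groups.

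Among the carotenoid cleavage genes related to the *NCED* genes, *CCD1*, *CCD4*, *CCD7* and *CCD8*, *CCD1* was lower than WT under ABA in all 4 genotypes, by -0.23 to -0.45 on the log2 scale, and *CCD4* was higher in *dxo1* (0.83 ± 0.14, adjusted p = 0.000461) and *dxo1*/*cDXO1* (1.04 ± 0.12, adjusted p = 1.53e-05). *CCD8*, which acts in strigolactone synthesis, was called lower with ABA in the genotypes other than WT by -1.32 to -2.20, at 4 to 51 counts a library. In WT *CCD8* was not called with all libraries. Without mock replicate 1 the WT estimate was -0.81 ± 0.50 (adjusted p = 0.287, edgeR), from fewer libraries than in the other genotypes. None of the interactions of *CCD8* with genotype was called. *CCD7* was not tested. Of the 7 relatives of the members, counting *AAO1*, *AAO2* and *AAO4*, 5 were tested against WT in mock, and of these *dxo1* had 3 called (24.8% of all genes), *dxo1*/*cDXO1* had 2 (23.6%), *rnmt1-3* had 1 (18.8%) and *dxo1*/*NTE* had 0 (1.6%). These counts became 4 (43.7% of all genes), 3 (40.1%), 3 (36.8%) and 1 (14.1%) without WT mock replicate 1. Under ABA 4 were tested, and *dxo1* had 3 called (43.7%), *dxo1*/*cDXO1* had 4 (45.4%), *rnmt1-3* had 2 (36.3%) and *dxo1*/*NTE* had 1 (8%).

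A list of 13 carotenoid and xanthophyll genes, from phytoene synthase to the xanthophylls, passed the filter in all comparisons. Not all of them add to the substrate of the pathway. *LUT1*, *LUT2* and *LUT5* act mainly in the lutein branch, and *NPQ1* encodes the enzyme for the reverse of the *ABA1* step. Those that were lower in the mutants sat beside others that were higher. Against WT in mock, *dxo1* had 2 of 13 higher and 3 lower (24.8% of all genes called), *dxo1*/*cDXO1* 3 higher and 0 lower (23.6%), *rnmt1-3* 2 higher and 6 lower (18.8%), and *dxo1*/*NTE* 0 of either (1.6%). Those of *dxo1*/*cDXO1* were thus at the share of all genes, and those of *rnmt1-3* above it. Leaving out WT mock replicate 1 turned these counts into 4 and 5 (43.7%), 4 and 2 (40.1%), 4 and 7 (36.8%), and 0 and 7 (14.1%). The medians over the 13 were -0.21, -0.01, -0.25 and -0.32 on the log2 scale, and those over all genes were within 0.02 of 0. Under ABA the counts were 4 higher and 2 lower for *dxo1* (43.7%), 7 and 2 for *dxo1*/*cDXO1* (45.4%), 3 and 4 for *rnmt1-3* (36.3%) and 0 for *dxo1*/*NTE* (8%).

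*BCH1* and *BCH2*, the β-carotene hydroxylase genes that make zeaxanthin, the substrate of *ABA1*, were higher than WT in *dxo1*, *dxo1*/*cDXO1* and *rnmt1-3* under both treatments. *BCH2* had 34 to 76 counts in WT mock and 124 to 179 in *dxo1* mock, a log2 fold change of 1.35 ± 0.29 (adjusted p = 0.0127), and 1.70 ± 0.31 and 1.99 ± 0.30 in *dxo1*/*cDXO1* and *rnmt1-3* mock. Without WT mock replicate 1 the *BCH2* values were 1.72, 2.08 and 2.36. *BCH1* differed by 0.68 ± 0.10, 0.98 ± 0.12 and 0.46 ± 0.11 in the same order, and by 0.73, 1.03 and 0.50 without that library. In *dxo1*/*NTE* mock both were lower than in *dxo1*, *BCH2* at -1.20 and *BCH1* at -0.78. *PSY*, the phytoene synthase gene, was higher under ABA in *dxo1* (0.31), *dxo1*/*cDXO1* (0.52) and *rnmt1-3* (0.24), and *ABA4*, which acts in neoxanthin synthesis, was lower in them by -0.41, -0.46 and -0.55. *LUT2*, the lycopene epsilon cyclase gene, was lower under ABA in *dxo1* (-0.48), *dxo1*/*cDXO1* (-0.26) and *rnmt1-3* (-0.41).

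With ABA against mock, 3 of the 13 carotenoid and xanthophyll genes rose in WT (10% of all genes called higher). In *dxo1*/*NTE* 5 rose (15.4%), in *rnmt1-3* 4 (14.7%), in *dxo1* 6 (14.1%) and in *dxo1*/*cDXO1* 1 (13.6%), and none was called lower. The share of these 13 genes was above that of all genes except in *dxo1*/*cDXO1*. *LUT2* rose in every genotype, by 1.10 ± 0.11 in WT (adjusted p = 0.000253) and by 0.75 to 1.26 in the others on the log2 scale. Without WT mock replicate 1, 5 of the 13 genes rose in WT, and *LUT2* by 1.21. *BCH2* rose by 1.18 ± 0.29 in WT (adjusted p = 0.0245), by 0.49 in *dxo1* and by 1.35 in *dxo1*/*NTE*. Without WT mock replicate 1 the WT value was 1.55. In *dxo1*/*cDXO1* *LUT2* was the only one of the 13 genes called, so *BCH2* was not called there. The *BCH2* estimate of *rnmt1-3* is not given here.

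**Figure D5:**
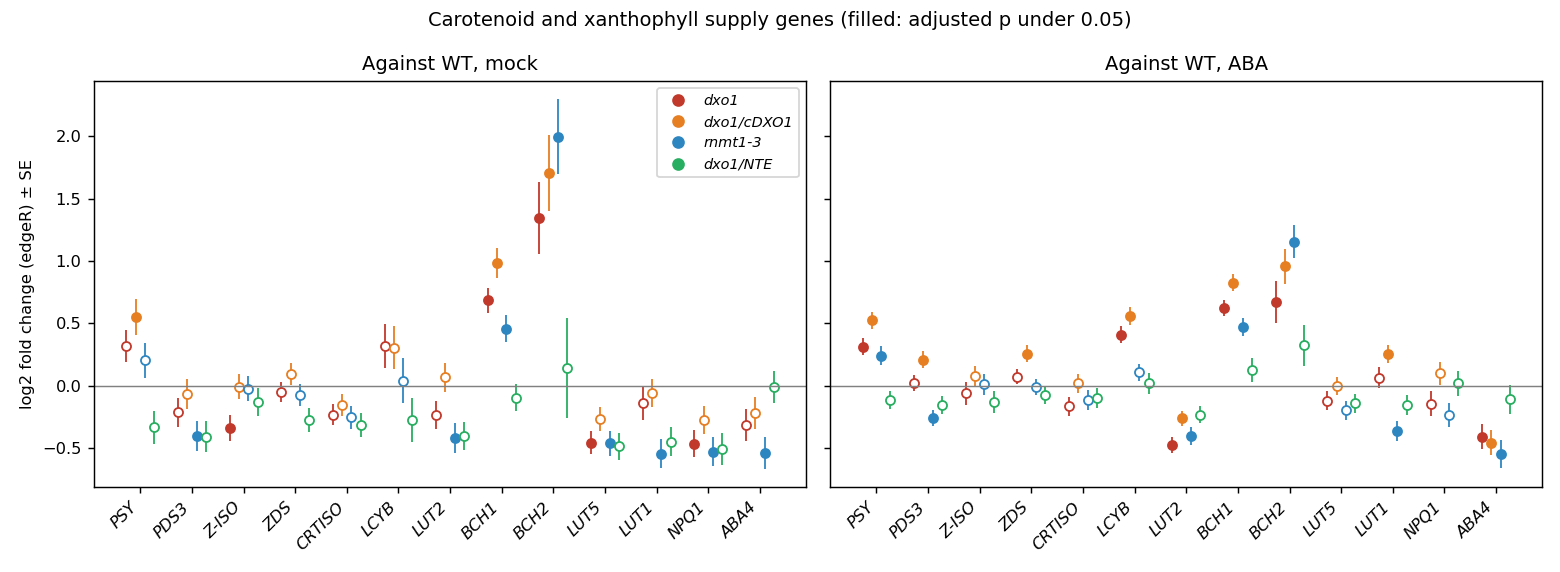
Log2 fold change against WT (y axis, edgeR estimate, bars give the SE) of the 13 carotenoid and xanthophyll genes (x axis) in mock (left) and ABA (right). The 4 genotypes are shown by colour, and filled points had an adjusted p under 0.05. *BCH2* lay highest, at 1.35 to 1.99 in *dxo1*, *dxo1*/*cDXO1* and *rnmt1-3* mock, and no gene was called in *dxo1*/*NTE* with all libraries.

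The 6 genes of molybdenum cofactor synthesis, the cofactor that ABA3 activates for AAO3, were all tested. Under ABA, *dxo1* and *dxo1*/*cDXO1* each had 1 higher and 3 lower than WT (43.7% and 45.4% of all genes called), *rnmt1-3* had 1 and 1 (36.3%), near the share of all genes, and *dxo1*/*NTE* had 0 higher and 1 lower (8%). In mock, 2 were lower in each of *dxo1* (24.8%) and *dxo1*/*cDXO1* (23.6%), 1 was higher in *rnmt1-3* (18.8%), and 0 were called in *dxo1*/*NTE* (1.6%). With WT mock replicate 1 left out, 1 was higher and 3 were lower in each of *dxo1* (43.7%) and *dxo1*/*cDXO1* (40.1%), 1 higher and 1 lower in *rnmt1-3* (36.8%), and 0 higher and 1 lower in *dxo1*/*NTE* (14.1%). *CNX7* was the higher one under ABA in each case, at 0.55 ± 0.10, 0.52 ± 0.11 and 0.93 ± 0.10 on the log2 scale, and *CNX6* was lower in *dxo1* by -0.39 ± 0.07 and in *dxo1*/*cDXO1* by -0.33 ± 0.08.

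The genes whose log2 CPM most resembled each pattern across the 30 libraries were found among 19068 genes with Pearson's r, given as a description only, since the libraries share treatment and genotype groups. For *NCED3* they were AT1G73480 (r = 0.992), *HAI3* (r = 0.99), a protein phosphatase gene, and *MYB102* (r = 0.989), a transcription factor gene. For *AAO3* they were AT1G22930 (r = 0.967), AT4G33540 (r = 0.967) and AT4G01610 (r = 0.962). *NCED3* spanned 4.12 log2 units over the group means, *AAO3* 1.74, *ABA1* 1.26, *ABA3* 0.726 and *ABA2* 0.581.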

How the data were processed

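Poly(A) RNA of 30 *Arabidopsis* seedling libraries was aligned by the authors with HISAT2 2.2.1 to TAIR10 and counted per gene with featureCounts (Subread 2.0.8), per the submitters' processing notes, and the authors deposited these raw counts in 1 table with gene lengths. The annotation version, strand setting and treatment of multi-mapping reads are not given in the sources used here. Groups were taken from the sample titles.

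Counts were tested with edgeR 4.0.16 (R 4.3.3; filterByExpr with a minimum count of 10, TMM, quasi-likelihood) on the 6 libraries of each comparison, or 12 for an interaction, with p-values adjusted by Benjamini-Hochberg across every gene in the fit and a call at adjusted p under 0.05. CPM used TMM-scaled totals, and TPM used the deposited lengths, which equalled the TAIR10.1 exon length for all 9 members. All 69 gene IDs of the lists were found in the table and in the reference. The fit of *dxo1* against WT in mock was checked on simulated data. Their dispersions were taken from *dxo1* mock, so the wider spread of WT mock was not covered. Alternatives were DESeq2 1.42.0, RLE scaling, no filter, 1 fit over 30 libraries, a replicate block, a rule of unadjusted p under 0.05 with absolute log2 fold change over 1, and libraries left out (for the pathway lists, leaving out WT mock replicate 1 was chosen after seeing the data). Likeness was computed over genes averaging 1 CPM or more. All 9 members were named in every comparison, with up to 6 further genes per pathway list, those called in most comparisons. *CCD4* and *CCD8* were named after their values were seen. Members and lists were chosen with earlier results of these data known. Replicate numbers deviated together (all correlations over 0.1) in 1 of 17 comparisons, *dxo1*/*cDXO1* against *dxo1* in mock (0.111, 0.133 and 0.235).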

Additional observations from a re-analysis of the deposited data

How the results depend on the processing

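Of 46 results for single members, 32 were called and 23 of these kept their call under every alternative other than the rule with a log2 fold change over 1, among them all 6 *AAO3* calls against WT and all 5 *NCED3* responses to ABA; no result changed sign. Under that rule, of unadjusted p with an absolute log2 fold change over 1, the number of members called was 1 for *dxo1*/*cDXO1* against WT in mock, 0 for *rnmt1-3* in mock, 0 for *dxo1* and *rnmt1-3* and 1 for *dxo1*/*cDXO1* under ABA, 1 for ABA in WT, *dxo1*, *dxo1*/*cDXO1* and *rnmt1-3*, and 0 for *dxo1*/*NTE* against *dxo1* in both treatments, since most changes are under that size (0.777% to 9.7% of all genes passed it in 2-group comparisons). In 1 fit over 30 libraries it was 2 for *dxo1*/*NTE* against WT in mock (*ABA2* and *AAO3*), 1 for *rnmt1-3* under ABA and 5 for ABA in WT. For *dxo1*/*NTE* against WT under ABA it was 1 with DESeq2, 1 without the filter and 2 with the replicate block. With the replicate block it was 1 for *dxo1*/*cDXO1* against *dxo1* in mock and 2 under ABA. The correlations of same-numbered libraries under ABA were 0.0532, 0.0151 and 0.0588, none of them over 0.1. In the remaining 2-group comparisons the block moved the count by at most 1.5 times, and the cause of these changes was not tested.

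With libraries left out in turn, the count ranged from 1 to 2 for both *dxo1* and *dxo1*/*cDXO1* against WT in mock, and stayed at 1 for *rnmt1-3* and 0 for *dxo1*/*NTE*. Under ABA it ranged from 2 to 4 for *dxo1*, 2 to 3 for *dxo1*/*cDXO1*, 1 to 3 for *rnmt1-3* and 0 to 1 for *dxo1*/*NTE*. For ABA against mock it ranged from 1 to 5 in WT, 3 to 4 in *dxo1* and *dxo1*/*cDXO1* and was 3 in *rnmt1-3* and *dxo1*/*NTE*, and for *dxo1*/*NTE* against *dxo1* it ranged from 1 to 3 in mock and 1 to 2 under ABA. The interactions stayed at 0 in all alternatives. Depth limits *NCED2*, *NCED5*, *NCED6* and *NCED9*, which passed the count filter in 2 fits (*NCED2*) or none and were otherwise not tested.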
